A study of Mus musculus with 17 samples.

Results

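The mRNA levels of 10 genes of the NRF2 pathway and of antioxidant defence were followed in mouse peritoneal macrophages exposed to the HIV protein Tat. The genes were picked by symbol (Nfe2l2, Hmox1, Nqo1, Gclm, Gclc, Txnrd1, Srxn1, Slc7a11, Sod2 and Prdx1) and not by a threshold on a measured value, though with earlier results of these data known. All 10 are among the 21683 rows of the expression table, and all 10 passed the filter on low values that left 10451 rows for testing. The 17 libraries were made from male C57BL/6 mice, 8 weeks old, that all carried floxed alleles of the kinase gene IKKβ (IKKβF/F). Macrophages were drawn into the peritoneum with thioglycollate, collected 3 days later in the labels and 4 days later in the written methods, left to attach for 4 h, and treated for 12 h. F/F PBS (n = 6) denotes IKKβF/F cells given PBS, F/F Tat (n = 6) the same genotype given 100 nM recombinant Tat, and ΔMye Tat (n = 5) IKKβΔMye cells given 100 nM Tat. IKKβΔMye mice carry 1 LysM-Cre knock-in allele in addition, so deletion is driven from the lysozyme 2 locus in myeloid cells, that locus is itself altered, and undeleted cells can remain. IKKβΔMye cells given PBS were not analysed here, so an effect of the genotype under Tat cannot be told apart from an effect of the genotype alone. Tat was produced in E. coli, and after removal of endotoxin the study measured it as below the detection limit. The control libraries were given PBS and not the placebo preparation that the study also made. The part of the preparation apart from Tat was therefore not tested in these libraries.

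NRF2, encoded by Nfe2l2, is a transcription factor that is held back in the cytoplasm by KEAP1, an adaptor that passes it to a CUL3 ubiquitin ligase for destruction. Oxidants and electrophiles modify KEAP1, and NRF2 then reaches the nucleus, pairs with a small MAF protein and binds antioxidant response elements, from which BACH1 can displace it. Its targets make glutathione, reduce thioredoxin and peroxiredoxins, break down heme and supply NADPH, and several of them also respond to other factors. Since NRF2 is controlled largely through protein stability, its mRNA level is not a measure of its activity.

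The sequence that NRF2 reads was looked for in the genes' own promoters, and the matches are shown because they are the letters by which the pathway is defined at the DNA. The letters TGACNNNGC, the core of an antioxidant response element, were searched on both strands in the 250 bases before each RefSeq start (GRCm38.p6). Of the members, 8 are in the promoter table, with 10 starts, and Hmox1 and Gclc are not. Bases further from the start were not searched, so a member without a match here may still have one elsewhere. Nfe2l2, Gclm, Prdx1 and Txnrd1 had a match, which is 40% of the members' starts beside 10.2% of all 32851 starts in the table. With the shorter pattern TGANNNNGC the shares were 70% and 35.2%, and Srxn1 and Slc7a11 joined the members with a match. The sequences below run 5′ to 3′ on the strand of the gene, and the capitals mark the matched 9 bases. In Gclm, Prdx1 and Txnrd1 the pattern is on the other strand, so the capitals are its reverse complement. For Txnrd1 the second of its 3 starts is shown. The transcribed end of the Nfe2l2 start was not found in a GENCODE transcript of that gene. Other matches to the shorter pattern alone are not shown. They are 2 in Srxn1 (from -158 to -150 and from -57 to -49), 2 in Slc7a11 (from -97 to -89 and from -45 to -37) and 1 at another start of Txnrd1.
Nfe2l2 (chr2:75704869-75704913, minus strand, from -240 to -232): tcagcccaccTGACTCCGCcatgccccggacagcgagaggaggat
Gclm (chr3:122245397-122245457, plus strand, from -134 to -126): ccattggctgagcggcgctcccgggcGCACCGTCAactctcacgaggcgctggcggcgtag
Prdx1 (chr4:116685440-116685500, plus strand, from -133 to -125): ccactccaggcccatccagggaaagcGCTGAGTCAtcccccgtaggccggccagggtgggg
Txnrd1 (chr10:82859088-82859148, plus strand, from -92 to -84): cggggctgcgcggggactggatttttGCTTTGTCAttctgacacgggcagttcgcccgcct
Srxn1, shorter pattern only (chr2:152105453-152105513, plus strand, from -45 to -37): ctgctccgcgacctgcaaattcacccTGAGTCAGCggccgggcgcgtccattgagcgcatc
The matches of Prdx1 and Srxn1 share their letters with an AP-1 motif, TGACTCA on one strand or the other. The groups of genes described below cut across these matches: Nfe2l2 and Gclm had less mRNA with Tat, Txnrd1 had more, and the direction for Prdx1 and Srxn1 depended on the scale.

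The values are TPM, a unit of transcript abundance that is scaled for gene length and adds up to a fixed total in each library, so that a level is a share of the library's mRNA. TPM hold no read counts, and the depth is therefore unknown. Differences are given on the log2(TPM + 0.1) scale from limma over all tested genes, with a Benjamini-Hochberg adjusted p, and a gene is said to have risen or fallen at an adjusted p under 0.01. The median tested gene differed by -0.65 on the log2 scale between F/F cells given Tat and those given PBS, and by 0.22 between ΔMye Tat and F/F Tat. Each difference was therefore also computed after median-ratio scaling, which sets every library by the median ratio of its genes to their mean over libraries and brings these medians to -0.03 and 0.01. Whether the cells truly held less mRNA of most genes, or a smaller share of it, cannot be told apart from these values. The study describes its libraries as biological replicates of mouse, while the sample labels do not tie a library to an animal, and the p-values measure the spread between libraries.

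Ikbkb, the targeted gene, was between 24.5 and 30.1 TPM in F/F PBS (median 26.8) and between 21.6 and 25.4 TPM in F/F Tat (median 22.9). In ΔMye Tat libraries 19 to 23 it was 19.9, 16.3, 15.6, 17.5 and 12.8 TPM, below every other library as deposited. The mean was 70.7% of that in F/F Tat (log2 difference -0.51 ± 0.08 SE, adjusted p = 4.51e-05). After scaling the difference from F/F Tat was -0.72 (adjusted p = 3.12e-08 from limma), again without overlap. That from F/F PBS was -0.71 as deposited and -0.30 after scaling, where the groups overlapped. F/F Tat was higher than F/F PBS by 0.43 after scaling. The values are for the whole gene, and which of its exons are floxed was not used here. All 8 macrophage markers tested for were present at a mean of at least 1 TPM in every group. Their summed level, led by Lyz2, the gene at the Cre locus, was 25796 to 26807 TPM in the F/F PBS libraries, 10310 to 10890 TPM with Tat and 8019 to 8344 TPM with Tat and the deletion. The macrophage markers were not followed singly, so the fall of their sum does not speak for each of the 8. The 7 neutrophil markers were led by S100a8, and Ngp was at 0 in every library. Their summed level was 52.8 to 61.4, 65.7 to 77.8 and 87.7 to 106 TPM in the same order. Only 3 of these markers passed the filter for testing. A mean of at least 1 TPM was reached by 3 of the 7 without Tat, and by 2 with Tat in either genotype. The rise of the sum thus rests on few genes and does not speak for most of the 7. T cell markers summed to at most 10.9 TPM, B cell markers to at most 25.7, NK cell markers to at most 9.17, mesothelial markers to at most 5.88 and eosinophil markers to at most 2.41. Mast cell markers lay between 23.99 and 45.4 TPM, and fibroblast markers between 27.7 and 37.6 in F/F cells and between 16.0 and 20.6 in ΔMye Tat. The part of these other cells in the results below was not tested. In bulk RNA, fewer cells of a type and less RNA per cell cannot be told apart.

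The first comparison asked what Tat did to these genes in cells with IKKβ. Slc7a11, Sod2 and Txnrd1 rose with Tat, and Nfe2l2, Gclm, Gclc, Nqo1, Hmox1, Srxn1 and Prdx1 fell. Thus 3 of 10 rose and 7 of 10 fell, beside 17% and 67.6% of all tested genes, so the members' counts were near the background. In none of the 10 did the 6 F/F Tat libraries overlap with the 6 F/F PBS libraries, as was the case for 15.3% (higher) and 62.4% (lower) of all tested genes. After scaling, 6 rose and 4 fell, beside 37.1% and 38.1%, and again no member's groups overlapped, beside 33.3% (higher) and 33.5% (lower). Slc7a11, Sod2 and Txnrd1 rose on both scales, and Nfe2l2, Gclm, Gclc and Nqo1 fell on both, while Hmox1, Srxn1 and Prdx1 were lower as deposited and higher after scaling. The median difference over the members was -0.40 as deposited and 0.23 after scaling. Slc7a11 alone also passed the fold change over 3 that the study used, which 5.21% of all tested genes did upwards and 19.4% downwards, and it alone did so after scaling, beside 8.51% and 9.77%. The exact two-sided permutation test gave p = 0.00216 for each member, the smallest value that 6 against 6 libraries allow.

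**Figure D1:**
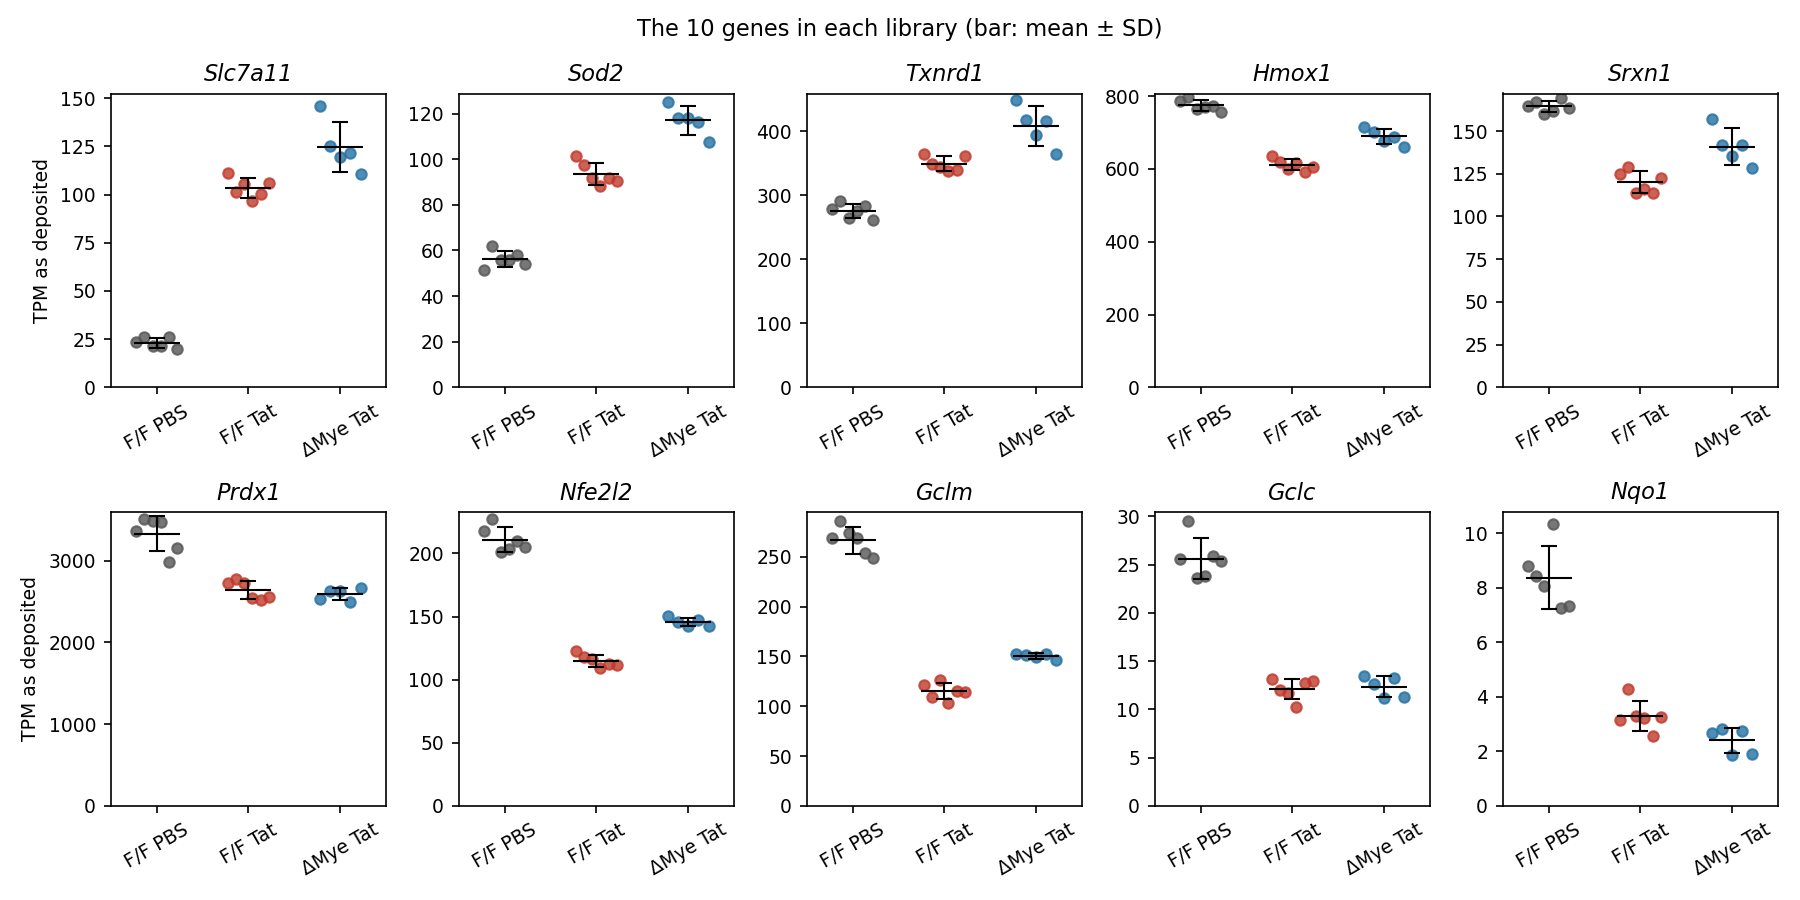
The level of each of the 10 genes in every library, in TPM as deposited on axes that start at 0, with points for libraries of F/F PBS (n = 6), F/F Tat (n = 6) and ΔMye Tat (n = 5) and bars for the mean ± SD. Slc7a11, Sod2 and Txnrd1 were higher in every Tat library than in every PBS library, and the other 7 genes were lower.

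Slc7a11 encodes the light chain of the cystine-glutamate exchanger, which brings in the cystine from which glutathione is made (chr3:49892526-50443614, minus strand, GRCm38). Its level in F/F PBS was 19.6 TPM in the lowest library, 22.5 at the median and 25.99 in the highest. In F/F Tat the same values were 96.4, 104 and 111 TPM, and in ΔMye Tat libraries 19 to 23 the gene stood at 146, 125, 120, 122 and 111 TPM. Every library given Tat was thus far above every library given PBS. From a mean of 23.01 ± 2.58 TPM (SD, n = 6) it rose to 103.5 ± 5.22 TPM (SD, n = 6), 4.50-fold, with a log2 difference of 2.17 ± 0.07 (SE, adjusted p = 2.74e-16) as deposited and 2.80 ± 0.05 after scaling. Its rank among all rows, counted from the most abundant, went from between 3757 and 4421 to between 1028 and 1143. Slc3a2, the heavy chain with which it is assembled, rose as well, from a mean of 517 to one of 701 TPM (log2 difference 0.44 ± 0.02 SE, 1.07 after scaling, adjusted p = 1.25e-13).

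Sod2, the manganese superoxide dismutase of mitochondria (chr17:13006846-13040063, plus strand), ranged from 51.2 to 61.9 TPM in F/F PBS with a median of 55.8, and from 88.2 to 101 TPM in F/F Tat with a median of 91.8. In ΔMye Tat libraries 19 to 23 it was 125, 118, 118, 116 and 108 TPM. The 3 groups did not overlap and F/F PBS was the lowest. The mean rose from 56.1 ± 3.59 to 93.5 ± 4.87 TPM (SD, n = 6 each), a log2 difference of 0.74 ± 0.05 (SE, adjusted p = 1.21e-11) and of 1.37 after scaling. Of its 31-base sequences, 26.7% also occur in transcripts of other genes, so part of its level could belong to those. Sod1, the copper-zinc enzyme of the cytoplasm, fell by 0.77 on the log2 scale as deposited (274 ± 8.20 to 161 ± 7.34 TPM, SD, adjusted p = 3.26e-14) and differed by -0.13 after scaling (adjusted p = 0.0191).

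Txnrd1, the cytosolic thioredoxin reductase that passes electrons from NADPH to thioredoxin (chr10:82833951-82897712, plus strand), was 262 to 292 TPM in F/F PBS (median 276) and 338 to 365 TPM in F/F Tat (median 347). The ΔMye Tat libraries 19 to 23 held 450, 418, 394, 417 and 365 TPM, of which the last lies within the F/F Tat range. The rise with Tat was the smallest of the 3, with means of 275.6 ± 11.5 and 349.5 ± 11.2 TPM (SD, n = 6 each) and a log2 difference of 0.34 ± 0.04 (SE, adjusted p = 2.23e-07). After scaling the difference was 0.98, and under quantile normalization it was 0.10 with an adjusted p of 0.0294, which misses the threshold. The gene Eid3 lies within its bounds on the same strand.

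Nfe2l2 itself (chr2:75675513-75704641, minus strand) fell with Tat. It was 201 to 227 TPM in F/F PBS, with a median of 208, and 109 to 122 TPM in F/F Tat, with a median of 114. In ΔMye Tat libraries 19 to 23 the values were 150, 146, 142, 148 and 143 TPM, a narrow band that lies between the other groups without touching either. The mean in F/F Tat was 54.6% of that in F/F PBS (114.9 ± 4.78 against 210.7 ± 9.88 TPM, SD, n = 6 each). The log2 difference was -0.87 ± 0.03 (SE, adjusted p = 5.69e-15) as deposited and -0.24 (adjusted p = 8.87e-07) after scaling, and it was -0.22 relative to the median of all tested genes.

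Gclm and Gclc encode the modifier and the catalytic subunit of glutamate-cysteine ligase, the enzyme that sets the rate of glutathione synthesis. Gclm (chr3:122245557-122270732, plus strand) ranged from 248 to 286 TPM in F/F PBS (median 269) and from 103 to 126 TPM in F/F Tat (median 115), and stood at 153, 151, 150, 152 and 146 TPM in ΔMye Tat libraries 19 to 23. Gclc (chr9:77754535-77794485, plus strand) ranged from 23.6 to 29.5 TPM (median 25.4) and from 10.3 to 13.1 TPM (median 12.4), and the ΔMye Tat libraries held 13.4, 12.6, 11.1, 13.3 and 11.3 TPM. Both subunits were thus at less than 50% of the PBS level in F/F Tat, 43.1% for Gclm and 47.3% for Gclc. Gclm fell by 1.21 on the log2 scale (SE 0.04, adjusted p = 1.21e-15; -0.58 after scaling). Gclc fell by 1.07 (SE 0.07, adjusted p = 2.51e-11; -0.45 after scaling). The ΔMye Tat libraries lay above F/F Tat for Gclm and within about the same range for Gclc.

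Nqo1, a quinone reductase that is widely used as a readout of NRF2 in other tissues (chr8:107388225-107403206, minus strand), was the least abundant member. Its level was 7.25 to 10.4 TPM in F/F PBS with a median of 8.25, and 2.56 to 4.27 TPM in F/F Tat with a median of 3.24. In ΔMye Tat libraries 19 to 23 it was 2.66, 2.80, 1.86, 2.76 and 1.91 TPM. The mean fell from 8.37 ± 1.15 to 3.29 ± 0.550 TPM (SD, n = 6 each), by 1.32 on the log2 scale (SE 0.13, adjusted p = 1.25e-08) as deposited and by 0.70 after scaling. At these low levels the SD was 13.7% to 19.7% of the mean, more than in any other member.

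Hmox1, Srxn1 and Prdx1 are the members whose direction with Tat depended on the scale. Hmox1, heme oxygenase, which opens the heme ring (chr8:75093621-75100589, plus strand), ranged from 755 to 797 TPM in F/F PBS (median 772) and from 593 to 636 TPM in F/F Tat (median 610), and in ΔMye Tat libraries 19 to 23 it was 717, 702, 678, 689 and 662 TPM. Its log2 difference with Tat was -0.34 ± 0.02 (SE, adjusted p = 7.88e-11) as deposited, -0.62 under quantile normalization and 0.29 (adjusted p = 1.03e-08) after median-ratio scaling. Srxn1, sulfiredoxin, which restores overoxidized peroxiredoxins (chr2:152105516-152111376, plus strand), ranged from 160 to 169 TPM (median 164) and from 114 to 129 TPM (median 119), and the ΔMye Tat libraries held 157, 142, 136, 142 and 128 TPM. The same 3 differences were -0.46 ± 0.04 (SE, adjusted p = 5.22e-09), -0.45 and 0.18 (adjusted p = 7.23e-05). Prdx1, a peroxiredoxin that removes hydrogen peroxide (chr4:116685544-116700822, plus strand), was the most abundant member, with 2985 to 3511 TPM (median 3418) in F/F PBS and 2518 to 2772 TPM (median 2639) in F/F Tat. In the ΔMye Tat libraries Prdx1 stood at 2537, 2632, 2631, 2488 and 2670 TPM. Its differences with Tat were -0.33 ± 0.04 (SE, adjusted p = 1.30e-07), -0.54 and 0.30 (adjusted p = 4.44e-05), and 15.4% of its 31-base sequences also occur in other genes. A smaller share of the mRNA was thus made up of these genes in every F/F Tat library. As deposited they fell by less than the median gene (-0.65), and under quantile normalization by more than the median gene (-0.068).

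**Figure D2:**
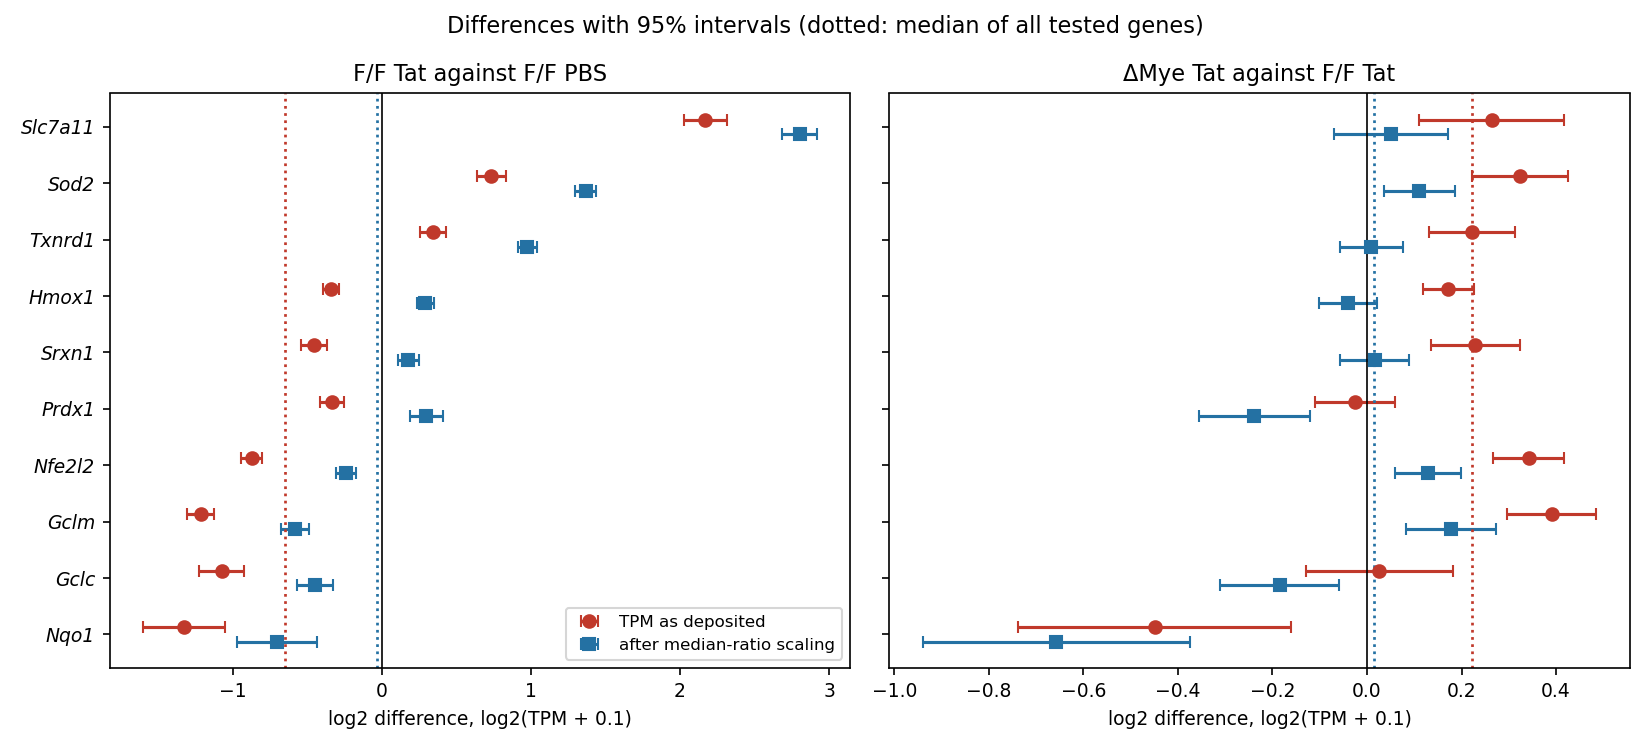
Log2 differences of the 10 genes with 95% intervals for Tat against PBS in F/F cells (left) and ΔMye Tat against F/F Tat (right), from TPM as deposited (red circles) and after median-ratio scaling (blue squares), with a dotted line at the median of all tested genes on each scale. Hmox1, Srxn1 and Prdx1 lie on opposite sides of 0 on the 2 scales in the left panel, and Slc7a11 lies at 2.17 and 2.80.

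The shift of the median gene varied with the level of the gene, a view that was taken after the values had been seen. Genes with a mean of 100 to 1000 TPM (1009 genes) had a median difference with Tat of -0.12 as deposited and 0.52 after scaling, and the 155 genes above that had -0.32 and 0.31. Hmox1 and Srxn1 lay below the median of their level on both scales, Txnrd1 above it, and Prdx1 within 0.02 of it. Nfe2l2 and Gclm, also between 100 and 1000 TPM, lay further below it. Among the 4660 genes with 10 to 100 TPM the median was -0.50 as deposited, with Gclc below and Slc7a11 and Sod2 above. Genes under 10 TPM (4627 genes) had a median of -1.01, beside -1.32 for Nqo1.

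The order of the levels changed with Tat. In F/F PBS it ran Prdx1, Hmox1, Txnrd1, Gclm, Nfe2l2, Srxn1, Sod2, Gclc, Slc7a11 and Nqo1, and the libraries of neighbours overlapped only for Txnrd1 with Gclm and for Gclc with Slc7a11. In F/F Tat, Prdx1, Hmox1 and Txnrd1 were still the top of the order and Gclc and Nqo1 the bottom. The middle 5, Srxn1, Gclm, Nfe2l2, Slc7a11 and Sod2, stood at means of 93.5 to 120 TPM, with each neighbour overlapping the next. In ΔMye Tat the middle of the order was Gclm, Nfe2l2, Srxn1, Slc7a11 and Sod2, again with overlap from each to the next.

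Ratios of 2 genes within a library do not depend on the scaling. The pairs were chosen after the values had been seen and are given as a description. Slc7a11 stood at 0.898 ± 0.0729 of the level of Gclc with PBS, at 8.57 ± 0.547 times it with Tat and at 10.1 ± 0.711 times it with Tat and the deletion (SD). The transporter for the substrate and the enzyme that uses it, both steps towards glutathione, thus moved in opposite directions with Tat. Txnrd1 over Gclm went from 1.04 ± 0.0502 to 3.05 ± 0.200 and 2.71 ± 0.166. The mitochondrial over the cytosolic superoxide dismutase, Sod2 over Sod1, went from 0.206 to 0.583 and 0.637. Nfe2l2 over Keap1 was 5.73 ± 0.433 with PBS, 2.59 ± 0.149 with Tat and 3.75 ± 0.230 with Tat and the deletion. The subunits of glutamate-cysteine ligase kept closer to each other, with Gclm over Gclc at 9.70 to 11.6 with PBS, 8.83 to 10.8 with Tat and 11.4 to 13.4 with Tat and the deletion.

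**Figure D3:**
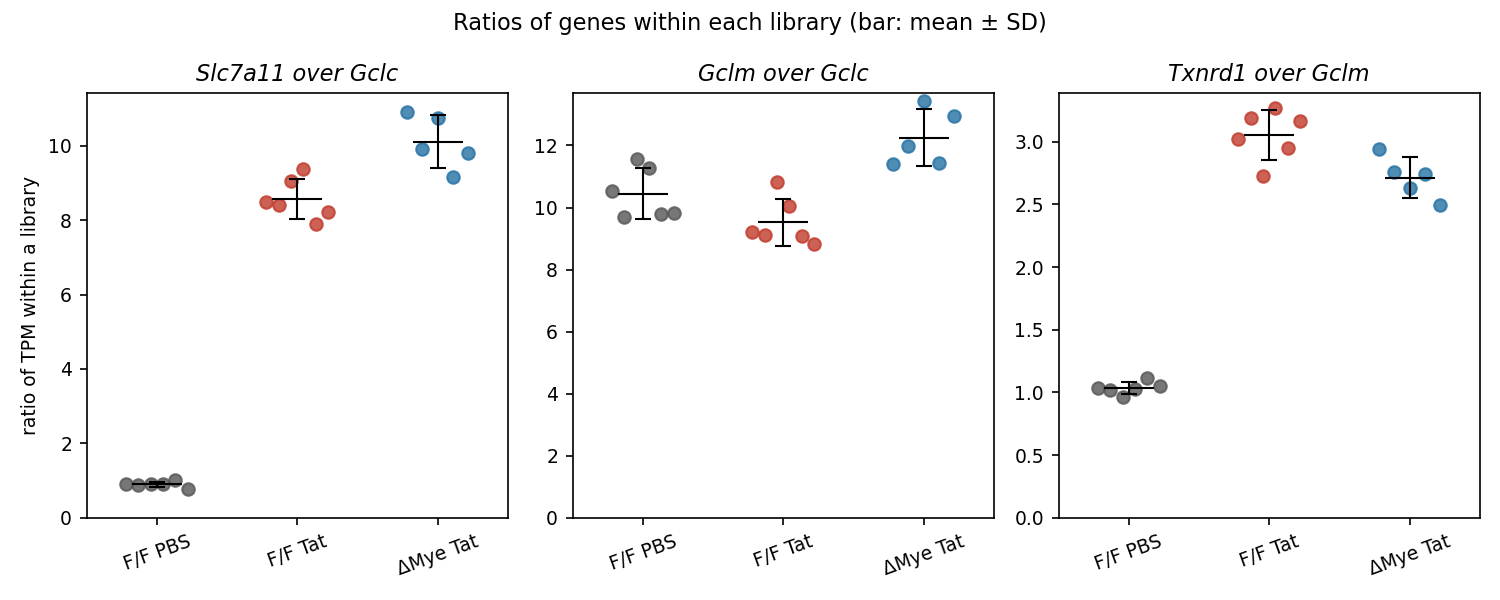
Ratios of the TPM of Slc7a11 to Gclc, Gclm to Gclc and Txnrd1 to Gclm within each library, which are the same on every scale that multiplies a whole library, with points for libraries and bars for the mean ± SD. Slc7a11 over Gclc was at most 1.00 in the 6 F/F PBS libraries and at least 7.89 in the libraries given Tat.

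The second comparison asked how the genes differed between cells with the myeloid deletion and cells with IKKβ, both given Tat. As deposited, 7 of 10 rose (Nfe2l2, Hmox1, Gclm, Txnrd1, Srxn1, Slc7a11 and Sod2), Nqo1 fell, and Gclc and Prdx1 did not pass the test, beside 38.8% of all tested genes that rose and 8.87% that fell. After scaling, 2 rose (Nfe2l2 and Gclm), 2 fell (Nqo1 and Prdx1) and 6 did not pass, beside 16.4% and 18.8%. The median difference over the members was 0.23, like the 0.22 of all tested genes, and 0.01 on both after scaling. Under quantile normalization it was 0.20 beside 0.025, with 6 members that rose and 1 that fell. None passed the fold change over 3, as 0.44% of all tested genes did upwards and 0.316% downwards, and none did after scaling, beside 0.258% and 0.603%. Groups without overlap were found for 4 members as deposited, all higher (Nfe2l2, Hmox1, Gclm and Sod2), beside 28.6% of all tested genes higher and 8.01% lower. After scaling they were found for Nfe2l2 and Sod2, which were higher, and for Nqo1 and Prdx1, which were lower, beside 12.2% and 16.7%. This comparison uses the same F/F Tat libraries as the first, so the values of the 2 are not independent.

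Nfe2l2 and Gclm rose with the deletion on both scales. Nfe2l2 went from 114.9 ± 4.78 TPM (SD, n = 6) in F/F Tat to 145.6 ± 3.26 TPM (SD, n = 5) in ΔMye Tat, a log2 difference of 0.34 ± 0.04 (SE, adjusted p = 1.69e-07) as deposited and 0.13 (adjusted p = 0.00336) after scaling. Gclm went from 114.9 ± 8.16 to 150.4 ± 2.61 TPM (SD), a log2 difference of 0.39 ± 0.04 (SE, adjusted p = 6.08e-07) and of 0.18 (adjusted p = 0.00344) after scaling, where its groups overlapped. Gclc, the other subunit, had means of 12.1 ± 1.05 and 12.3 ± 1.08 TPM (SD) and a difference of 0.03 with a 95% interval of -0.13 to 0.18. After scaling Gclc differed by -0.19 (adjusted p = 0.0170).

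Nqo1 differed in the other direction, with means of 3.29 ± 0.550 TPM (SD, n = 6) and 2.40 ± 0.473 TPM (SD, n = 5). Its log2 difference was -0.45 ± 0.14 (SE, adjusted p = 0.00887 with limma, exact permutation p = 0.0108 unadjusted) and -0.66 (adjusted p = 5.24e-04) after scaling. The call as deposited is close to the threshold: leaving out 1 library ended it in 11 of the 17 cases, with an adjusted p of up to 0.0320 without ΔMye Tat library 21. Prdx1 had a difference of -0.03 as deposited, with a 95% interval of -0.11 to 0.06, and of -0.24 (adjusted p = 0.00177) after scaling, but of 0.11 (adjusted p = 0.0437) under quantile normalization.

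The other 5 members rose as deposited by between 0.17 and 0.32, where the median gene was at 0.22. The log2 difference was 0.32 ± 0.05 (SE, adjusted p = 1.53e-05) for Sod2 and 0.26 ± 0.07 (SE, adjusted p = 0.00465) for Slc7a11. It was 0.23 for Srxn1, 0.22 for Txnrd1 and 0.17 for Hmox1 (adjusted p = 2.31e-04, 2.49e-04 and 1.23e-05 from limma). After scaling the 5 differences lay between -0.04 for Hmox1 and 0.11 for Sod2, none past the threshold (adjusted p = 0.0161 for Sod2 and at least 0.268 for the rest). Under quantile normalization, where the median tested gene was at 0.025, Sod2, Hmox1, Txnrd1 and Srxn1 rose by 0.24, 0.21, 0.21 and 0.15 (adjusted p = 1.72e-04, 3.97e-06, 6.31e-04 and 0.00673 from limma), and Slc7a11 differed by 0.19 (adjusted p = 0.0278). Slc7a11 lost its call as deposited without F/F Tat library 10 or 11 or without ΔMye Tat library 19 or 20 (adjusted p = 0.0120, 0.0102, 0.0179 and 0.0106 from limma). ΔMye Tat library 19 was the highest of its group in 8 of the 10 members as deposited and in 4 after scaling, and it also had the highest Ikbkb of the 5 libraries. Library 23 was the lowest in 6 members as deposited and in 2 after scaling, with the lowest Ikbkb. The factor by which median-ratio scaling divides a library was also highest in library 19 (0.999) and lowest in library 23 (0.887) of this group. The part of these library differences in the results was not tested.

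The third comparison set ΔMye Tat against F/F PBS, and so joined the treatment and the deletion. In it 3 members rose (Slc7a11, Sod2 and Txnrd1) and 7 fell, beside 17.5% and 58.8% of all tested genes, and the 2 groups overlapped in none of the 10, beside 14.8% (higher) and 52.8% (lower) of all tested genes. After scaling 5 rose and 4 fell, beside 34% and 33.7%, and 5 were higher and 3 lower without overlap, beside 29.6% and 29.7%. Slc7a11 was 5.42-fold higher than in F/F PBS (124.7 ± 13.1 against 23.01 ± 2.58 TPM, SD; log2 difference 2.43, 2.85 after scaling, adjusted p = 1.68e-16 as deposited). Sod2 was 2.08-fold higher (log2 difference 1.06, 1.48 after scaling) and Txnrd1 differed by 0.57 (0.98 after scaling). Nqo1 was at 28.6% of its PBS level (log2 difference -1.77, -1.36 after scaling, adjusted p = 4.999e-10 as deposited). Slc7a11 and Nqo1 were the members past a fold change of 3, which 4.38% of all tested genes passed upwards and 11.1% downwards. After scaling Slc7a11 was the only one, beside 6.42% and 6.28%. Nfe2l2 stood at 69.1% of its PBS level as deposited (log2 difference -0.53) and differed by -0.11 after scaling (adjusted p = 0.00490), where the groups overlapped. The comparison shares its libraries with the first 2.

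The wider pathway was described with 84 further genes in 6 lists, of which 78 were tested. With Tat 15 of them rose and 57 fell, and 25 rose and 43 fell after scaling, beside 17% and 67.6% of all tested genes as deposited and 37.1% and 38.1% after scaling; the same shares stand for each list. The median over these genes was -1.05, beside -0.65 for all tested genes, and -0.42 beside -0.03 after scaling. Of the 13 regulators of NRF2, 5 rose on both scales and 1, Bach1, fell on both. The share of all tested genes that was called on both scales was not computed. Maff and Mafk, small MAF proteins that pair with NRF2 or BACH1, rose most. Maff went from 11.1 ± 1.08 to 38.1 ± 2.01 TPM (SD; log2 difference 1.78, adjusted p = 8.18e-16) and Mafk from a mean of 19.9 to one of 48.5 TPM (1.28 ± 0.07 SE, adjusted p = 4.68e-13). Keap1, the inhibitor, rose from 36.8 ± 1.20 to 44.5 ± 1.89 TPM (SD; 0.27, adjusted p = 2.09e-05), Sqstm1, the autophagy receptor that can sequester KEAP1, by 0.31, and Syvn1, a ubiquitin ligase that can also act on NRF2, by 0.46 on the log2 scale. Bach1, the repressor at antioxidant response elements, fell by 1.24 (29.8 ± 2.60 to 12.5 ± 0.651 TPM, SD, adjusted p = 6.58e-12) and by 0.61 after scaling. Of the rest, Cul3, Mafg and Gsk3b differed by -0.02, -0.13 and 0.14 and did not pass the test as deposited, while all 3 rose after scaling. Rbx1, Nfe2l1, Btrc and Dpp3 fell as deposited by between 0.26 and 0.72, and after scaling the first 2 rose and the last 2 did not pass.

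Among 20 tested genes that make or use glutathione, 5 rose and 13 fell with Tat, near the 17% and 67.6% of all tested genes. Of the 13, 7 passed a fold change of 3, as 19.4% of all tested genes did downwards. After scaling 7 rose and 11 fell, and 5 of the 11 passed that fold, beside 9.77% of all tested genes. Gpx1, a glutathione peroxidase, fell from 921 ± 26.6 to 153 ± 6.95 TPM (SD; log2 difference -2.59, -1.95 after scaling, adjusted p = 1.73e-19), and Mgst3, a microsomal glutathione transferase, fell by 2.52. Glrx, glutaredoxin, rose by 0.35. Of 16 tested genes of the thioredoxin and peroxiredoxin systems and of methionine repair, 3 rose and 13 fell, and 4 rose and 11 fell after scaling. Prdx5, a peroxiredoxin, rose from 888 ± 39.8 to 2322 ± 125 TPM (SD; 1.39, 2.02 after scaling, adjusted p = 3.60e-17) and Txn1, thioredoxin, from 896 ± 52.2 to 1322 ± 48.7 TPM (SD; 0.56, adjusted p = 1.53e-11). Msrb1, a methionine sulfoxide reductase, fell by 2.86 and Txnip, an inhibitor of thioredoxin, by 1.65. Substrate and enzyme of the cytosolic thioredoxin couple, Txn1 and Txnrd1, thus both rose.

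Of the 4 superoxide and peroxide genes, 1 rose and 3 fell, and 1 rose and 2 fell after scaling. Cat, catalase, fell from 117 ± 5.49 to 26.2 ± 1.07 TPM (SD; log2 difference -2.15, -1.52 after scaling, adjusted p = 3.11e-20), and Ccs, the copper chaperone of Sod1, by 1.59. In the list of heme breakdown and iron storage 1 of 6 rose and 5 fell, beside 17% and 67.6% of all tested genes, and 2 rose and 3 fell after scaling, beside 37.1% and 38.1%. Blvra, the biliverdin reductase that acts next after heme oxygenase, fell by 1.99 (1.36 after scaling, adjusted p = 1.66e-19 as deposited) and Slc48a1, a heme transporter, by 1.91. Fth1, the ferritin heavy chain, rose by 0.14. Hmox2, the constitutive heme oxygenase, differed by -0.32 as deposited and by 0.32 after scaling, and 46.0% of its 31-base sequences occur in other genes.

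The last list holds 20 genes that supply NADPH or are otherwise known as targets of NRF2. Of 19 tested, 18 fell with Tat and 0 rose with limma (1 was higher at an unadjusted p under 0.05), and 15 fell on both scales. A fold change of 3 was passed downwards by 10 as deposited, beside 19.4% of all tested genes. After scaling 6 passed it, beside 9.77%. Abcc1, the 1 that did not fall, differed by 0.20 (adjusted p = 0.0177) and rose by 0.83 after scaling. It is named after its value was seen. Idh1, the cytosolic isocitrate dehydrogenase that makes NADPH, went from 116 ± 4.66 to 4.45 ± 0.452 TPM (SD; log2 difference -4.68, -4.05 after scaling, adjusted p = 2.61e-22). Cbr1, a carbonyl reductase, fell by 2.58. Among the genes of this list that fell and averaged 10 TPM or more with PBS, the smallest falls were those of Ugdh, UDP-glucose dehydrogenase (-0.80 as deposited, -0.17 after scaling), and of the scavenger receptor Marco (-0.75, and -0.12 with an adjusted p of 0.0299 after scaling). The list median was -1.77, beside -0.40 for the 10 members.

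**Figure D4:**
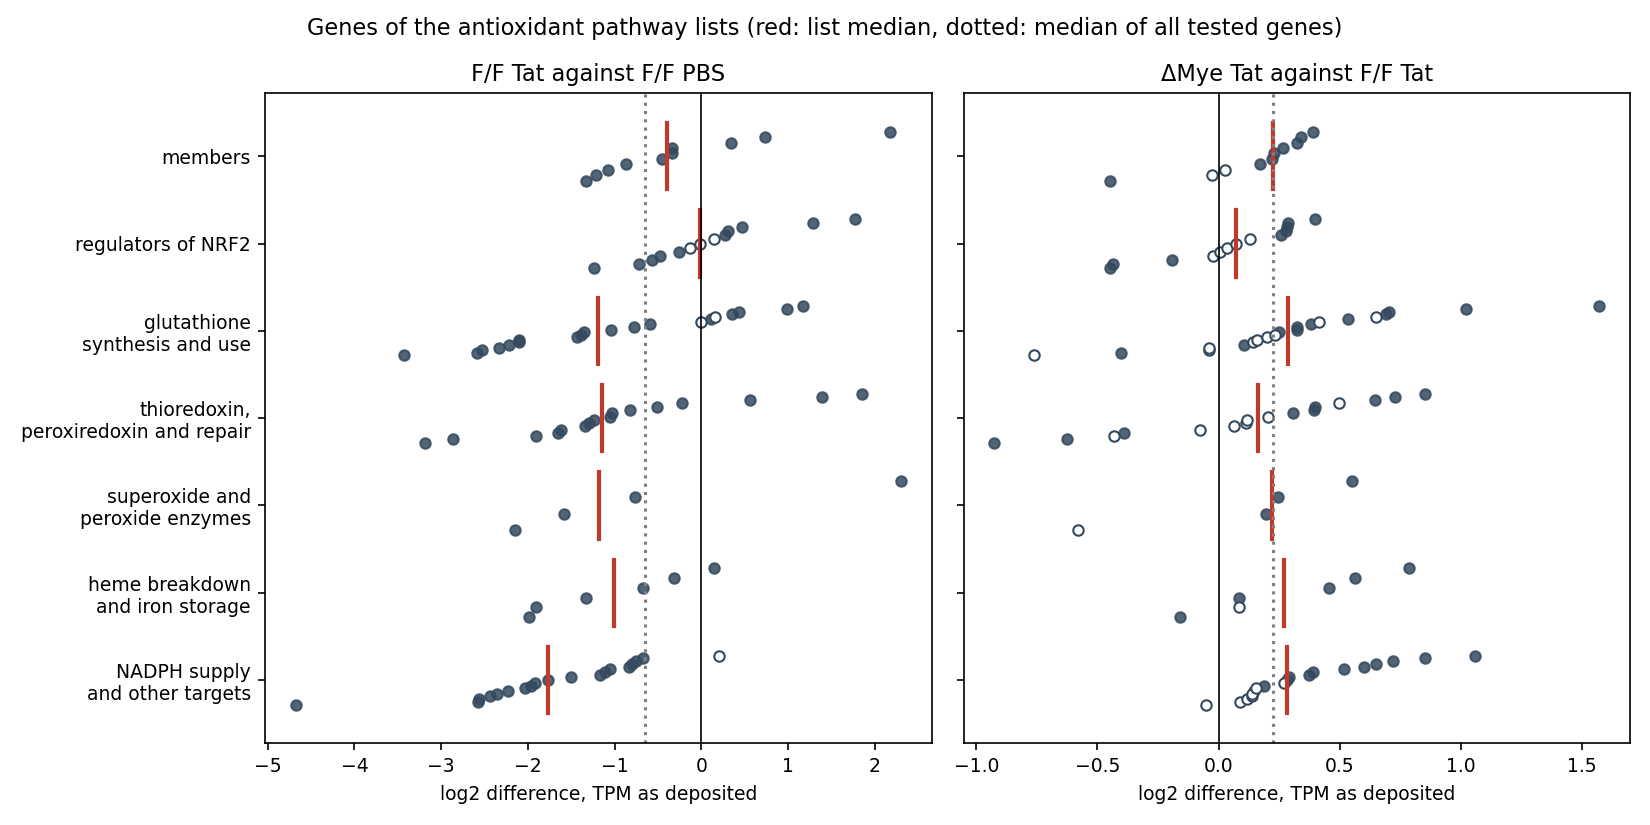
Log2 differences of each tested gene of the member list and of the 6 pathway lists, from TPM as deposited, for Tat against PBS in F/F cells (left) and ΔMye Tat against F/F Tat (right); filled points passed an adjusted p of 0.01, open points did not, red bars mark list medians and the dotted line the median of all tested genes. With Tat the list medians run from -1.77 for NADPH supply and other targets to -0.02 for the regulators.

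Between ΔMye Tat and F/F Tat, 40 of the 78 pathway genes rose and 8 fell, beside 38.8% and 8.87% of all tested genes, and 19 rose and 14 fell after scaling, beside 16.4% and 18.8%, with a median of 0.24 beside 0.22 for all tested genes. On both scales Keap1, Mafk and Syvn1 fell with the deletion. Keap1 differed by -0.19 (adjusted p = 0.00228, -0.41 after scaling), Mafk by -0.45 (adjusted p = 2.00e-05, -0.66) and Syvn1 by -0.44 (adjusted p = 1.40e-04, -0.65). Maff rose by 0.40 as deposited and differed by 0.19 after scaling (adjusted p = 0.0167). The remaining regulators differed by between -0.02 and 0.29 as deposited, and 4 of them rose (Nfe2l1, Mafg, Gsk3b and Dpp3). After scaling these 4 did not pass, and Cul3, Bach1 and Sqstm1 fell by 0.21, 0.24 and 0.14 (adjusted p = 3.50e-04, 0.00348 and 0.00616 from limma). The list of 13 regulators thus had 5 that rose and 3 that fell as deposited, and 0 and 6 after scaling. Gpx1 rose from 153 ± 6.95 to 312 ± 35.3 TPM (SD; 1.02, 0.81 after scaling, adjusted p = 1.73e-11), Msrb1 by 0.85, Blvra by 0.78, Txnrd2, the mitochondrial thioredoxin reductase, by 0.73, Mgst1 by 0.69, the fatty acid receptor Cd36 by 0.65, Slc48a1 by 0.56, Ccs by 0.55 and Htatip2 by 0.52. These 9 also rose after scaling. Prdx5, Prdx6 and Gsto1 fell by 0.39, 0.62 and 0.40 as deposited and by more after scaling, and Hmox2 fell by 0.16. Cat, Sod1, Ugdh, Pgd, Esd and Fth1 rose by between 0.086 and 0.24 as deposited and did not pass after scaling.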

How the data were processed

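RNA-Seq was analysed in 17 libraries, grouped by the sample titles. One further feature of the background that all mice share is not reported here. The authors ran Salmon with Ensembl transcripts (GRCm38, mm10 in the labels) and deposited TPM values by gene symbol. They compared groups in edgeR after TMM normalization, which was not repeated, since the table holds no counts. Depth and counting error are therefore unknown, and no column of another sample was present.

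Rows that reached 1 TPM in 5 or more libraries entered limma 3.58.1 (R 4.3.3, eBayes with trend) as log2(TPM + 0.1), in one fit of the 3 groups with 14 residual degrees of freedom, and p was adjusted over 10451 rows. Single members were also given an exact permutation test in scipy 1.17.1. Gene bounds came from GENCODE, promoters from RefSeq, and shared 31-base sequences from the GENCODE transcripts. Members and lists were chosen with earlier results of these data known. All members, Ikbkb and every regulator were named. From each other list, the 2 highest and 2 lowest called genes with at least 10 TPM in the higher group were named in the first 2 comparisons. Abcc1 was named besides, where stated. The lists are not described for ΔMye Tat against F/F PBS.

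Alternatives were other pseudocounts and filters, median-ratio scaling, quantile normalization, a fit of 2 groups, robust weights, and each library left out. For single members the exact permutation test was counted as a further alternative.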

Additional observations from a re-analysis of the deposited data

How the results depend on the processing

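Of 780 checks of single member differences, 745 kept their side of the threshold and, where called, their direction. A further 27 lost their call, 1 gained one and 7 that had been called changed sign, all 7 under median-ratio scaling. Of the 780, 510 left out 1 library. Where that library was in neither compared group, the difference itself could not change. The other 270 include the exact permutation test, which keeps the main difference and sets an unadjusted p against 0.01. Of these 270, 250 stayed the same, 12 lost their call, 1 gained one and 7 changed sign. Under median-ratio scaling 18 of 30 stayed the same. Differences between ΔMye Tat and F/F Tat that were not called also changed sign, that of Gclc to -0.19 under scaling, to -0.18 under quantile normalization and to as low as -0.020 without F/F Tat library 10 or ΔMye Tat library 19 or 22, and that of Prdx1 to 0.11 under quantile normalization. With Tat, scaling gave 6 members that rose, 4 that fell and a median of 0.23, with Hmox1 at 0.29, Srxn1 at 0.18 and Prdx1 at 0.30, and 25 of the other pathway genes rose. Quantile normalization moved the median to -0.49. In ΔMye Tat against F/F Tat, scaling gave 2 that rose, 2 that fell, a median of 0.013 and Hmox1 at -0.040, with 19 pathway genes that rose and 14 that fell, and 26 rose under quantile normalization. The count that fell was 0 with pseudocounts of 0.5 and 1, with no filter, with a fit of 2 groups and with robust weights (limma; 1 lower at an unadjusted p under 0.05 in each), where Nqo1 had an adjusted p of 0.0101, 0.0118, 0.0165, 0.0202 and 0.0157, and it was 0 to 1 with each library left out. Without F/F PBS library 1, 2, 3 or 6 the adjusted p of Nqo1 was 0.0111, 0.0112, 0.0113 and 0.0101, without F/F Tat library 7, 8, 9, 10 or 12 it was 0.0127, 0.0240, 0.0155, 0.0145 and 0.0148, and without ΔMye Tat library 21 or 23 it was 0.0320 and 0.0271. In ΔMye Tat against F/F PBS, scaling gave 5 that rose, 4 that fell and a median of 0.13, with Hmox1 at 0.25, Srxn1 at 0.19 and Prdx1 at 0.060, quantile normalization a median of -0.42, and the count that fell past a fold of 3 was 0 with a pseudocount of 1, with scaling and with quantile normalization. The cause of these changes was not tested. No paired analysis was run, because the labels do not tie a library to an animal. Whether libraries of different groups came from the same animal is unknown. Without read counts the error of low values such as those of Nqo1 is known only from the spread between libraries.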
